A study of Homo sapiens with 30 samples.

Results

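The comparison set untreated HCT-116 cells against untreated KM12C cells, which took up 6 of the 30 arrays of the series, 3 per line. The arrays were chosen by the cell line and the vehicle named in their labels, a rule that uses no measured value. Both are human colorectal carcinoma lines, and each is a model of 1 tumor, so the replicates were cultures of a line and not patients. The series measured HCT-116, KM12C and another colorectal line, HT-29, together with the immune lines NK-92 and TALL-104, with and without the GSK-3 inhibitor elraglusib, on an array that reads coding and non-coding transcripts. HCT-116 DMSO and KM12C DMSO cells received the vehicle for 24 h, and no genotype was altered in either line. HCT-116 was grown in McCoy's 5A medium and KM12C in Eagle's minimal essential medium, both with serum, so line and medium cannot be told apart in any difference given here. HCT-116 elraglusib and KM12C elraglusib arrays, 3 per line, came from cells treated for 24 h, at 1 µM by the study's figure legend. These 6 further arrays gave the same line difference and share none with the untreated comparison. The study also describes the dose as an inhibitory concentration, which could differ by line, and the part of the dose in the treated line difference was not tested. The 3 HT-29 DMSO arrays, from cells in the same medium as HCT-116, gave the level in a further colorectal line.

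The lining of the colon is renewed from stem cells at the base of the crypts. These cells depend on WNT signaling and carry LGR5, a receptor for R-spondins. Their daughters become absorptive cells, with a brush border, or goblet cells, which secrete mucins and trefoil factors. Carcinoma cells keep parts of these programs and can lose epithelial adhesion genes while gaining mesenchymal ones, a change called epithelial-mesenchymal transition (EMT). GSK-3, the target of elraglusib, helps to destroy β-catenin, the effector of WNT signaling.

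Each array gave a log2 signal for 67528 probe sets, on which a step of 1 is a doubling of signal, and the array medians lay between 4.23 and 4.47. Over 16811 probe sets with a mean signal of at least 6, replicates of a line correlated at 0.985 to 0.995 and arrays of different lines at 0.883 to 0.894, a description across probe sets that share arrays. KM12C array 3 stood apart from its replicates, with the highest median and an estimated array weight of 0.288, against 0.803 to 2.131 for the other arrays. Signals of 477 olfactory receptor probe sets, genes that colon cells mostly do not use, set a background of 4.66 at their 95th percentile. Of 9 markers of colorectal epithelium, 9 were above background in KM12C and 6 in HCT-116, where CDH17, VIL1 and LGALS4 were at 4.46, 4.30 and 4.35. Of 27 T and NK cell genes, 6 were above background in HCT-116 and 4 in KM12C, and the mean over the list lay between 4.17 and 4.51 in every array. Of 24 fibroblast, endothelial and myeloid genes, 4 were above background in HCT-116 and 3 in KM12C, with list means of 4.34 to 4.48 and 4.62 to 4.86. These means include LYZ, at 7.92 in HCT-116 and 17.39 in KM12C, the largest difference of the list. The means of CD3D, CD3E, PTPRC, CD4 and CD8A were below background in both lines.

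Differences are given as HCT-116 minus KM12C. A probe set was called when its limma p, adjusted by the Benjamini-Hochberg method over all probe sets, was under 0.05. Of 67528 probe sets, 11387 were called (16.9%), 5194 of them higher in HCT-116 (7.69%) and 6193 higher in KM12C (9.17%). The median difference over all probe sets was 0.03. Beyond 1 log2 unit in size there were 2349 called probe sets higher in HCT-116 and 2688 higher in KM12C. For 22465 genes with a probe set of their own, read from the brightest one, 6013 were called (26.8%), 2795 higher in HCT-116 (12.4%) and 3218 higher in KM12C (14.3%), and the median difference was 0.04. Differences beyond 4 log2 units were called for 89 genes higher in HCT-116 and 93 higher in KM12C.

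**Figure D1:**
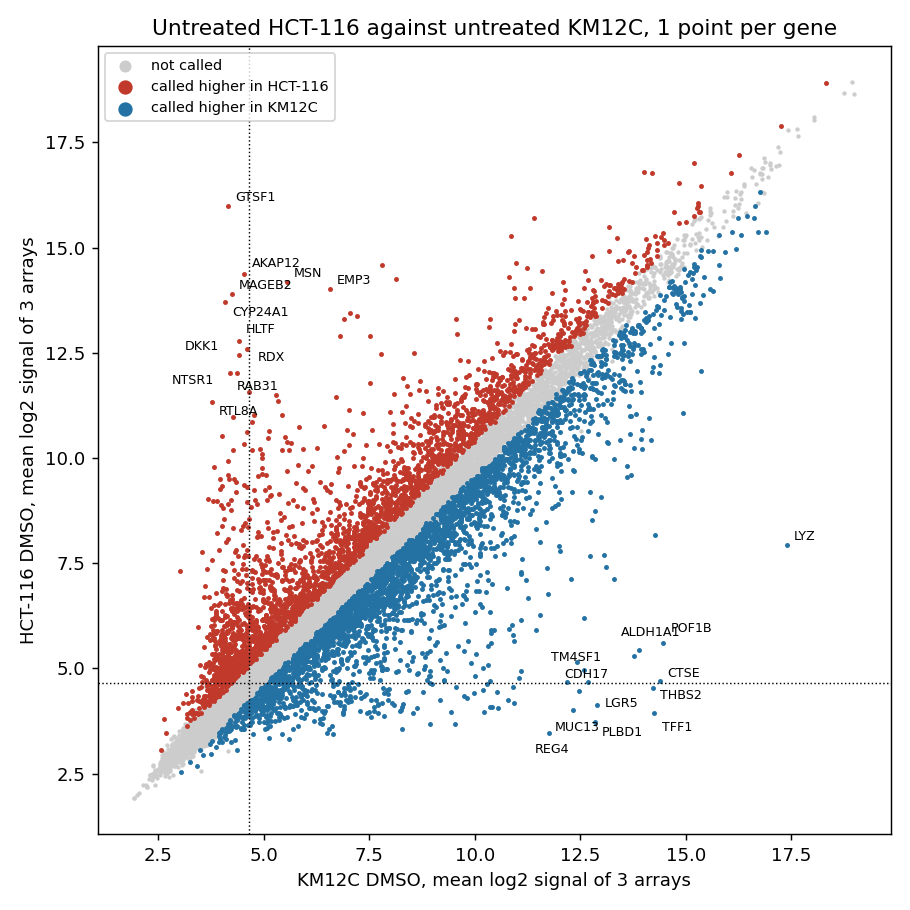
Mean log2 signal of 3 KM12C DMSO arrays (horizontal) against that of 3 HCT-116 DMSO arrays (vertical), 1 point per gene, red where called higher in HCT-116, blue where called higher in KM12C and grey where not called. Dotted lines mark the background of 4.66. The named genes lie far from the diagonal, most with signal in one line and a level near background in the other, while LYZ and EMP3, at 7.92 and 6.56, keep the highest signal in the lower line among the 24 genes of largest difference.

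The largest difference in the direction of HCT-116 was that of GTSF1, which in germ cells works with PIWI proteins to silence transposons. Its log2 signal was 15.95, 15.98 and 16.02 in the HCT-116 arrays and 4.15, 4.06 and 4.24 in the KM12C arrays, a difference of 11.83 ± 0.12 (SE, n = 3 and 3; limma adjusted p = 9.64e-10). The KM12C arrays were all under the background, so this difference sets a bright signal against none. MAGEB2, a germ cell gene that tumors can express, was at 13.86, 13.83 and 13.98 in HCT-116 and at 4.0, 4.22 and 4.50 in KM12C. CYP24A1, the enzyme that inactivates vitamin D, was at 13.66, 13.77 and 13.69 in HCT-116 and at 4.08, 3.95 and 4.22 in KM12C. The groups did not overlap for either gene, which the choice of the largest differences required, and the differences were 9.65 ± 0.15 and 9.62 ± 0.12.

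AKAP12, a scaffold that binds protein kinase A, was at 14.41, 14.23 and 14.45 in HCT-116 and at 4.32, 4.73 and 4.58 in KM12C, a difference of 9.82 ± 0.14. Moesin (MSN) and radixin (RDX), relatives that tie actin to the membrane, differed by 8.63 ± 0.17 and 8.01 ± 0.16, with KM12C means of 5.54 and 4.59. The remaining genes among the 12 largest were HLTF, a DNA translocase of the repair of stalled replication forks (8.38 ± 0.13), DKK1, a secreted WNT antagonist (8.04 ± 0.13), RAB31, a GTPase of vesicle traffic (7.83 ± 0.16), NTSR1, the neurotensin receptor (7.67 ± 0.14), RTL8A, a gene derived from a retrotransposon (7.55 ± 0.13), and EMP3, a membrane protein (7.45 ± 0.16).

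The largest difference toward KM12C was that of TFF1, a trefoil factor secreted with mucus. Its signal was 4.10, 3.61 and 4.15 in HCT-116 and 14.29, 13.88 and 14.60 in KM12C, a difference of -10.30 ± 0.21 (limma adjusted p = 1.76e-08). THBS2, a secreted matrix protein, was at 4.61, 4.42 and 4.57 in HCT-116 and at 14.38, 14.46 and 13.86 in KM12C. CTSE, an aspartic protease of gastric and intestinal epithelium, was at 4.79, 4.78 and 4.52 in HCT-116 and at 14.66, 14.54 and 13.94 in KM12C. KM12C array 3 was the lowest of its group for THBS2 and CTSE and the highest for TFF1, and every KM12C array was more than 9 log2 units above every HCT-116 array for these 3 genes. PLBD1, a phospholipase B-like protein, differed by -9.11 ± 0.12, LGR5 by -8.77 ± 0.17, and the secreted or membrane proteins MUC13, REG4 and CDH17 by -8.30 ± 0.12, -8.30 ± 0.17 and -8.01 ± 0.14.

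**Figure D2:**
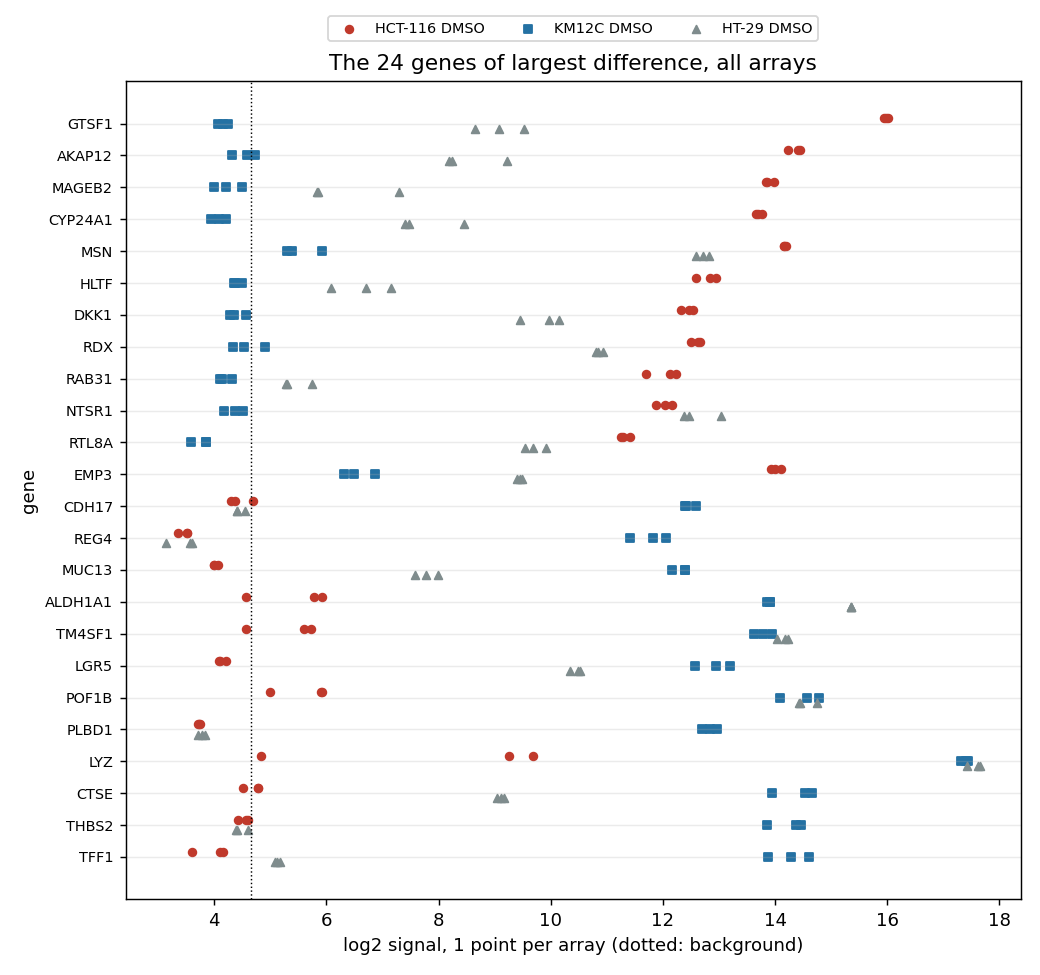
Log2 signal of the 24 genes of largest difference, 12 in each direction, with 1 point per array for HCT-116 DMSO (circles), KM12C DMSO (squares) and HT-29 DMSO (triangles), and the background of 4.66 as a dotted line. The HCT-116 and KM12C points do not overlap for any of them, which the choice of these genes required. The HCT-116 points of LYZ are spread from 4.84 to 9.68.

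The other 4 genes of the KM12C set were not steady across the HCT-116 arrays. LYZ, the bacteriolytic enzyme lysozyme, was at 4.84, 9.25 and 9.68 in HCT-116 and at 17.41, 17.44 and 17.32 in KM12C, a difference of -9.47 ± 1.06 (limma adjusted p = 0.000299) that was -7.92 without HCT-116 array 1 and -10.34 without HCT-116 array 3. ALDH1A1, a retinaldehyde dehydrogenase, was at 4.57, 5.78 and 5.93 in HCT-116, POF1B, an actin-binding protein of epithelia, at 5.00, 5.93 and 5.91, and TM4SF1, a membrane protein, at 4.57, 5.60 and 5.73. Their differences were -8.46 ± 0.31, -8.86 ± 0.27 and -8.48 ± 0.28. HCT-116 array 1 was the lowest for each of the 4 genes, and HT-29 gave 14.15 to 17.57 for them. In all, 5 genes were at 14 or more in HT-29 and within 1 log2 unit of background in HCT-116 array 1 (these 4 and KRT20), and 5 of 5 were higher in arrays 2 and 3 than in array 1, by medians of 1.03 and 1.16. THBS2, CDH17 and PLBD1 were at 12 or more in KM12C, at background in HT-29 and low in HCT-116 array 1. For them the same medians were -0.19 and -0.04. Both sets were picked partly by a low level in HCT-116 array 1, which favors that array being the lowest, so they are a description. In the elraglusib HCT-116 arrays the means were 10.82 for LYZ, 6.62 for ALDH1A1, 6.52 for POF1B, 6.16 for TM4SF1 and 5.91 for KRT20. Each of these treated arrays was above DMSO array 1 for all 5 genes. The part of this pattern in the untreated or the treated line difference was not tested.

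By a stricter reading, 55 genes had signal in HCT-116 alone and 62 in KM12C alone, meaning that all 3 arrays of one line were at or under background and all 3 of the other at least 2 log2 units above it. Of the HCT-116 set, 12 genes also had a mean at least 2 log2 units above background in HT-29, and of the KM12C set, 16. Besides genes named above, the HCT-116 set held OSMR and LIFR, receptors of the interleukin-6 family, VCAN, COL12A1 and PLOD2 of the extracellular matrix, ITGA5, the fibronectin receptor subunit, and NLRP2. The KM12C set held TGFBI, TNC, the tight junction genes CLDN2 and CLDN10, the intestinal surface proteins GPA33 and VIL1, the proteases TMPRSS2 and TMPRSS4, and PIWIL1, a PIWI protein of the germ line. GTSF1 and PIWIL1, both of the PIWI pathway, were thus on opposite sides, with PIWIL1 at a difference of -6.51. These names were picked after their values were seen. In the elraglusib arrays, 55 of 55 and 62 of 62 were called, beside 18.8% and 17.2% of all genes called higher in HCT-116 and in KM12C. These sets were picked by a wide untreated gap. Of all untreated probe set calls beyond 1 log2 unit, 93.3% were called again in the same direction.

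Promoter sequence was set beside this split, since DNA methylation, which was not measured in these files, acts on CG pairs in promoters. Windows of 300 bases, from 250 before to 50 after each start, came from RefSeq (GRCh38.p14), with 43 of the 55 HCT-116 genes and 46 of the 62 KM12C genes matched. A window was called CpG-rich when its GC content was over 50% and its observed CG count over 0.6 of that expected from its C and G content. That held for 69.8% of the HCT-116 set, 39.1% of the KM12C set, 78.8% of 9859 genes with signal in either line and 46.9% of all 27195 windows. The upstream 120 bases are shown 5′ to 3′ for the 3 largest differences within each of these sets, among genes with a RefSeq window. CG pairs are in capitals because the sets differ in the share of CpG-rich windows. The stretches lie at chr12:54473603-54473722 (GTSF1, minus strand), chrX:30215443-30215562 (MAGEB2, plus), chr3:149086534-149086653 (HLTF, minus), chr6:169253847-169253966 (THBS2, minus), chr12:14567884-14568003 (PLBD1, minus) and chr3:124934752-124934871 (MUC13, minus).
GTSF1: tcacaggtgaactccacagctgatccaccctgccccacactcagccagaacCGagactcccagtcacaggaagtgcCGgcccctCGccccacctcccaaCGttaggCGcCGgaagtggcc
MAGEB2: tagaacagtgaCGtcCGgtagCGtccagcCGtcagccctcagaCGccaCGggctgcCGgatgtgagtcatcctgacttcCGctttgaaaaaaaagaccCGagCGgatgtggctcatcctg
HLTF: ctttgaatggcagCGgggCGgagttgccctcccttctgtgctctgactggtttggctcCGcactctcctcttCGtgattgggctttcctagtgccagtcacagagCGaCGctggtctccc
THBS2: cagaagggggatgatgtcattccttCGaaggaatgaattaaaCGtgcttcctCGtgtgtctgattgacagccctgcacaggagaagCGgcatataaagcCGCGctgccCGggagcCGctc
PLBD1: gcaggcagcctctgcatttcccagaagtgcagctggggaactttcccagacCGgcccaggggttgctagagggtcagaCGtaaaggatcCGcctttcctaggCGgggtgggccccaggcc
MUC13: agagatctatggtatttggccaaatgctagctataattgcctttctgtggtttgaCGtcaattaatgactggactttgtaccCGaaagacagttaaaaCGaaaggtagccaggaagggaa
The stretches hold 6, 10 and 6 CG pairs for the HCT-116 genes and 8, 4 and 3 for the KM12C genes, so the pairs overlap between the sets, and THBS2 has more than GTSF1. Over the whole windows, the observed-over-expected ratio was 0.35 for GTSF1, 0.79 for MAGEB2 and 0.86 for HLTF, and 0.60, 0.59 and 0.40 for THBS2, PLBD1 and MUC13.

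Motifs of 5 transcription factor families were looked for in the same windows on both strands. The AP-1 letters TGANTCA were in 14% of the HCT-116 windows, 15.2% of the KM12C windows, 4.55% of windows of genes with signal and 7.73% of all windows. The CDX letters TTTATNG were in 2.33%, 13.0%, 5.94% and 10.1%, the HNF4 letters CAAAGTCC in 2.33%, 4.35%, 1.03% and 1.21%, and the TCF letters CTTTGAT in 2.33%, 0%, 1.40% and 2.65%. The E-box letters CACCTG were in 20.9%, 26.1%, 19.2% and 20.6%. These are counts of letters in sets of 43 and 46 genes, and a match is not a bound site.

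Genes were then read by lists of known roles, and each count stands against the 12.4% and 14.3% of all genes called higher in HCT-116 and in KM12C. Over 13352 genes with signal in either line, these shares were 20.0% and 23.2%. That is the closer comparison for lists whose members mostly had signal. The lists and the gene names were drawn up with earlier results of these data known, so the counts describe the lines and carry no test of the lists.

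**Figure D3:**
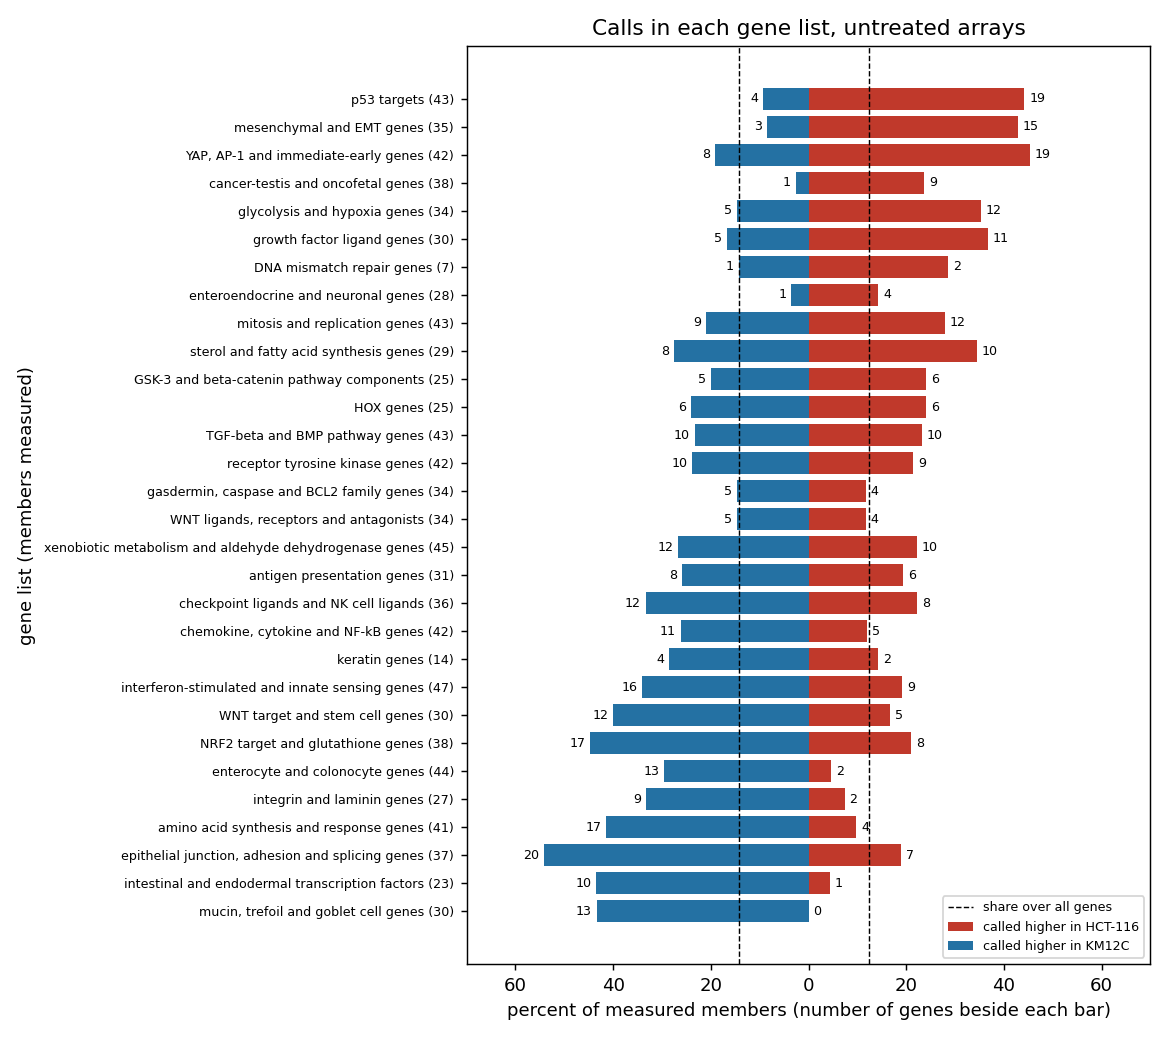
Percent of the measured members of each gene list called higher in HCT-116 (red, right) or in KM12C (blue, left), with the number of genes beside each bar, the members measured in brackets and dashed lines at the shares over all genes. The goblet cell bar reaches only the KM12C side (13 genes against 0), and the bars of p53 targets, mesenchymal genes and YAP, AP-1 and immediate-early genes reach well past the dashed line on the HCT-116 side (19, 15 and 19 genes). Over genes with signal in either line, the shares higher in HCT-116 and in KM12C were 20.0% and 23.2%.

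Of 23 measured intestinal and endodermal transcription factors, 10 were higher in KM12C and 1 in HCT-116, with a median difference of -0.40. EHF, an ETS factor of epithelia, was at 8.89, 9.19 and 9.17 in HCT-116 and at 13.13, 13.12 and 12.72 in KM12C, a difference of -3.91 ± 0.16. GATA6, KLF5 and PPARG, all factors of gut epithelial growth or differentiation, differed by -3.85 ± 0.14, -3.30 ± 0.15 and -3.25 ± 0.12. The pioneer factors FOXA1 and FOXA2 differed by -3.48 ± 0.24 and -3.28 ± 0.19, with HCT-116 means of 4.96 and 5.26. CDX2, which specifies intestinal identity, was low in both lines, at 5.19, 4.94 and 5.41 in HCT-116 and at 6.88, 6.06 and 5.76 in KM12C. Its call (limma adjusted p = 0.0273) was lost without HCT-116 array 1 (limma adjusted p = 0.0674) or array 2 (limma adjusted p = 0.0961), and the call of GFI1, the factor higher in HCT-116, was lost without any 1 array except KM12C array 3. CDX1 was under background in both lines.

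Goblet cell products showed the same side. Of 30 mucin, trefoil and goblet cell genes, 13 were higher in KM12C and 0 in HCT-116, although the median difference was only -0.20, and 17 members were not called, most of them under background in both lines. AGR2, a protein disulfide isomerase needed to make mucins, was at 3.91, 3.94 and 4.07 in HCT-116 and at 10.34, 10.04 and 10.32 in KM12C. TFF3, the trefoil factor of goblet cells, differed by -2.97 ± 0.14 and SPINK4, a secreted goblet cell protein, by -3.52 ± 0.16. The goblet cell mucin MUC2 was at background in both lines, with means of 4.41 and 4.34.

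Of 44 enterocyte and colonocyte genes, 13 were higher in KM12C and 2 in HCT-116 (median difference -0.02). CEACAM5, the carcinoembryonic antigen, was at 4.17, 4.09 and 4.27 in HCT-116 and at 11.12, 10.92 and 10.75 in KM12C, and its relative CEACAM6 differed by -5.63 ± 0.18. The brush border genes DPP4, a peptidase, and VIL1, which bundles actin, differed by -5.70 ± 0.14 and -5.53 ± 0.21, and the carbonic anhydrase CA12 by -4.97 ± 0.16. KRT20, a keratin of differentiated colon cells, was at 4.73, 5.35 and 5.39 in HCT-116 and at 4.63, 5.11 and 4.78 in KM12C, where the groups overlapped (limma adjusted p = 0.431), and at 14.26 in HT-29.

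Adhesion genes were called on both sides. Of 37 epithelial junction, adhesion and splicing genes, 20 were higher in KM12C and 7 in HCT-116, with a median difference of -0.54. E-cadherin (CDH1), the core of epithelial adherens junctions, was at 10.34, 10.46 and 10.46 in HCT-116 and at 13.58, 13.56 and 13.21 in KM12C, so HCT-116 held a clear signal that was lower by 3.03 ± 0.14 log2 units. CLDN1, CLDN2 and CLDN3, claudins of tight junctions, differed by -4.14 ± 0.28, -3.41 ± 0.28 and -3.07 ± 0.28, while DSC3, a desmosomal cadherin, was higher in HCT-116 by 4.37 ± 0.19. The members higher in HCT-116 also held JUP, DSP and PPL, which are desmosomal plaque proteins, TJP1, CLDN4 and CDH3. Keratins KRT8 and KRT18, the pair of simple epithelia, were bright in both lines and differed by -1.35 ± 0.13 and -1.22 ± 0.12, and EPCAM by -1.12 ± 0.12.

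Of 35 mesenchymal and EMT genes, 15 were higher in HCT-116 and 3 in KM12C, with a median difference of 0.27. CAV1, the coat protein of caveolae, was at 12.36, 12.60 and 12.48 in HCT-116 and at 7.84, 7.72 and 7.78 in KM12C, a difference of 4.70 ± 0.12. AXL, a receptor kinase, was at 9.37, 9.83 and 9.54 in HCT-116 and at 4.74, 4.83 and 5.05 in KM12C. ZEB1, a repressor of CDH1, was low in both lines but separate, at 6.70, 6.73 and 6.74 against 5.48, 5.55 and 5.80. The list did not move as a whole. Vimentin (VIM), the intermediate filament of mesenchymal cells, was lower in HCT-116, at 5.04, 5.17 and 5.12 against 6.34, 6.19 and 6.22 in KM12C, and TGFBI, a matrix protein induced by TGF-β, differed by -6.36 ± 0.11. The collagens COL1A1 and COL1A2 and the cadherin CDH2 were within 0.18 log2 units of each other between the lines and not called.

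Attachment to matrix differed in the genes used. Of 27 integrin and laminin genes, 9 were higher in KM12C and 2 in HCT-116, the latter ITGA5 (4.76 ± 0.17) and ITGA3 (2.67 ± 0.14), a count that was 4 without KM12C array 3. ITGA6, the laminin receptor subunit, was at 11.95, 12.18 and 12.04 in HCT-116 and at 15.46, 15.49 and 15.17 in KM12C, and LAMB1, a laminin chain, differed by -3.81 ± 0.17. ITGB6 differed by -2.38 ± 0.19 and was under background in the 3 HCT-116 arrays.

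Of 30 WNT target and stem cell genes, 12 were higher in KM12C and 5 in HCT-116 (median difference -0.11). LGR5 was at 4.11, 4.21 and 4.08 in HCT-116 and at 13.19, 12.95 and 12.57 in KM12C. Its relative LGR4 was at 6.98, 7.20 and 7.20 in HCT-116 and at 13.44, 13.39 and 13.08 in KM12C, so HCT-116 kept some LGR4 signal and none of LGR5 above background. SMOC2, a crypt base gene, LEF1, a partner of β-catenin on DNA, and CEMIP, a hyaluronan-degrading protein, differed by -3.98 ± 0.27, -2.55 ± 0.20 and -8.01 ± 0.16. AXIN2, a general readout of β-catenin activity, was at 6.07, 6.37 and 6.15 in HCT-116 and at 5.94, 5.77 and 5.76 in KM12C (difference 0.37 ± 0.13, limma adjusted p = 0.0993). On the HCT-116 side stood PROM1, the stem cell marker CD133, MSI1, CCND1 (2.03 ± 0.20), NKD1 and MYC (0.89 ± 0.13). The call of MYC was lost in the limma fit over all 30 arrays (adjusted p = 0.092).

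Of 25 GSK-3 and β-catenin pathway components, 6 were higher in HCT-116 and 5 in KM12C, and the latter count was 3 without any 1 HCT-116 array and 2 without KM12C array 1 or 2. GSK3A was at 10.25, 10.44 and 10.15 in HCT-116 and at 10.33, 9.98 and 9.95 in KM12C, and GSK3B at 10.69, 10.61 and 10.62 and at 10.95, 11.09 and 11.04. The GSK3A arrays overlapped (0.19 ± 0.15, limma adjusted p = 0.532), while those of GSK3B did not, but its limma adjusted p of 0.0511 missed the threshold (-0.39 ± 0.11). CTNNB1, which encodes β-catenin, differed by -0.61 ± 0.14 (limma adjusted p = 0.014), a call lost without HCT-116 array 1 (adjusted p = 0.0585), KM12C array 1 (adjusted p = 0.0594) or KM12C array 2 (adjusted p = 0.061). TCF7L2, the DNA-binding partner of β-catenin in gut, was higher in HCT-116 by 2.41 ± 0.14, as was BTRC, which tags β-catenin for destruction, by 1.71 ± 0.15. The coreceptor LRP6 differed by -1.82 ± 0.15. Outside the cell, WNT16, a WNT ligand, was at 10.95, 11.20 and 10.79 in HCT-116 and at 4.11, 4.16 and 4.57 in KM12C, and the WNT5A receptor ROR1 was at 6.68, 6.74 and 6.74 and at 9.17, 9.08 and 8.44. Of 34 WNT ligands, receptors and antagonists, 4 were called higher in HCT-116 and 5 in KM12C, shares near the background. The 4 were 2 without KM12C array 1 and 7 without KM12C array 3, and the 5 were 3 without HCT-116 array 1 or 3 or without KM12C array 1 or 2.

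Receptors and ligands of growth factors divided between the lines. Of 42 receptor tyrosine kinase genes, 9 were higher in HCT-116 and 10 in KM12C. ERBB3, the partner of ERBB2, was at 7.21, 7.26 and 7.26 in HCT-116 and at 11.24, 11.16 and 10.86 in KM12C, and IGF1R and EPHA4 differed by -2.24 ± 0.20 and -2.09 ± 0.20. EGFR was at 8.09, 8.31 and 8.19 in HCT-116 and at 7.77, 7.89 and 7.34 in KM12C, and missed the threshold (0.53 ± 0.16, limma adjusted p = 0.061). Of 30 growth factor ligand genes, 11 were higher in HCT-116 and 5 in KM12C. KITLG, the ligand of the receptor KIT, was at 15.59, 15.79 and 15.71 in HCT-116 and at 11.59, 11.51 and 11.10 in KM12C. The EGF family ligands divided, with EREG higher in HCT-116 by 1.75 ± 0.15 and BTC different by -2.33 ± 0.19.

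Of 43 TGF-β and BMP pathway genes, 10 were called on each side. SMAD3, which carries the TGF-β signal to DNA, was at 9.71, 9.85 and 9.76 in HCT-116 and at 7.09, 6.56 and 6.72 in KM12C. The ligand BMP7, the latent-TGF-β binding protein LTBP1 and the coreceptors CD109 and TGFBR3 were on the KM12C side, with differences of -3.24 ± 0.28, -2.72 ± 0.19, -2.67 ± 0.17 and -2.42 ± 0.19. TGFBR2, the type II receptor, differed by -0.80 ± 0.15. Of 42 YAP, AP-1 and immediate-early genes, 19 were higher in HCT-116 and 8 in KM12C, with a median difference of 0.30. The phosphatase DUSP5, IER3 and the factor KLF2 followed AXL (4.71 ± 0.16) on the HCT-116 side at 4.07 ± 0.14, 3.61 ± 0.19 and 3.41 ± 0.18. CCN2, a YAP target, was on the other side, at 4.16, 3.96 and 4.19 in HCT-116 and at 6.87, 6.68 and 6.04 in KM12C, as was SPRY2, an inhibitor of growth factor signaling (-3.17 ± 0.15).

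Of 43 p53 targets, 19 were higher in HCT-116 and 4 in KM12C, with a median difference of 0.35, and the latter count was 2 without HCT-116 array 3 or KM12C array 1. TP53INP1 was at 7.51, 7.88 and 7.62 in HCT-116 and at 4.74, 4.72 and 4.41 in KM12C. PMAIP1, the death protein NOXA, the phosphatase PPM1D and the ribonucleotide reductase subunit RRM2B differed by 2.19 ± 0.16, 1.76 ± 0.13 and 1.72 ± 0.14. MDM2, which degrades p53, was at 12.83, 13.03 and 12.97 in HCT-116 and at 11.79, 11.78 and 11.28 in KM12C, and CDKN1A, the p21 inhibitor of the cell cycle, at 8.24, 8.18 and 7.96 and at 6.94, 6.81 and 7.05. PERP, an adhesion protein of desmosomes as well as a p53 target, went the other way (-2.76 ± 0.14), and GDF15 overlapped between the lines (0.06 ± 0.20). Of 7 measured DNA mismatch repair genes, MSH6 and EXO1 were higher in HCT-116 and MSH3 in KM12C. MSH3, which repairs short insertion loops, was at 6.35, 6.70 and 6.54 in HCT-116, at 9.68, 9.76 and 9.62 in KM12C and at 9.74 on average in HT-29. A second gene of the list was called on the KM12C side without KM12C array 3.

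Of 43 mitosis and replication genes, 12 were higher in HCT-116 and 9 in KM12C. TYMS, the target of 5-fluorouracil, was at 13.84, 13.78 and 13.79 in HCT-116 and at 11.01, 10.87 and 10.99 in KM12C. The G1 cyclins divided, with CCND1 and CCNE1 higher in HCT-116 (2.03 ± 0.20 and 2.48 ± 0.12) and CCND2 different by -3.03 ± 0.20. Of 38 cancer-testis and oncofetal genes, 9 were higher in HCT-116 and 1 in KM12C, and most others were under background in both lines. Besides MAGEB2, they held the RNA-binding proteins IGF2BP3 and IGF2BP2 (3.11 ± 0.15 and 1.73 ± 0.17), PRAME (2.42 ± 0.17), HMGA2 (1.87 ± 0.21) and MAGEA6 (1.96 ± 0.15), whose near-identical copies can share its probes.

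Surface molecules read by immune cells differed in both directions. Of 36 checkpoint ligands and NK cell ligands, 8 were higher in HCT-116 and 12 in KM12C, with a median difference of 0.02. MICB, a ligand of the NK cell receptor NKG2D, was at 12.86, 12.97 and 12.85 in HCT-116 and at 7.36, 7.27 and 7.91 in KM12C, and its relative MICA differed by 1.79 ± 0.14. NCR3LG1, the ligand of the NK cell receptor NKp30, was at 6.02, 6.16 and 5.91 in HCT-116 and at 11.28, 11.23 and 10.17 in KM12C. CD274, which encodes PD-L1, was at 5.57, 5.93 and 5.73 in HCT-116 and at 5.70, 5.59 and 5.68 in KM12C, where the groups overlapped (0.09 ± 0.13, limma adjusted p = 0.797), while the related CD276 was higher in HCT-116 by 2.86 ± 0.18. Of 31 antigen presentation genes, 6 were higher in HCT-116 and 8 in KM12C. HLA-C was higher in HCT-116 by 2.01 ± 0.17, and the peptidases ERAP2 and ERAP1, which trim peptides for these molecules, differed by -4.79 ± 0.14 and -2.37 ± 0.14.

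Of 47 interferon-stimulated and innate sensing genes, 9 were higher in HCT-116 and 16 in KM12C, a split within the list. IFITM2, which blocks virus entry, was at 14.05, 14.54 and 14.17 in HCT-116 and at 8.51, 7.69 and 8.23 in KM12C, and IFITM3, a close copy that can share probes, differed by 2.68 ± 0.27. GBP3, an interferon-induced GTPase, was at 4.80, 4.70 and 4.70 in HCT-116 and at 9.36, 9.33 and 9.08 in KM12C, and TLR3, a sensor of double-stranded RNA, differed by -2.20 ± 0.16. Of 42 chemokine, cytokine and NF-κB genes, 11 were higher in KM12C and 5 in HCT-116, the latter 3 without HCT-116 array 2 or 3 or KM12C array 2, and under elraglusib 7 and 10. Of 34 gasdermin, caspase and BCL2 family genes, 4 were higher in HCT-116 and 5 in KM12C, shares near those over all genes. Among them MLKL, the effector of necroptosis, differed by -2.32 ± 0.13, CASP4, a sensor of bacterial lipopolysaccharide, by -1.46 ± 0.14, and BNIP3, which marks mitochondria for removal, was at 9.96, 10.52 and 10.51 in HCT-116 and at 4.44, 4.20 and 4.91 in KM12C.

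Of 38 NRF2 target and glutathione genes, 17 were higher in KM12C and 8 in HCT-116, with a median difference of -0.06. SLC7A11, the cystine importer, was at 10.79, 11.20 and 10.88 in HCT-116 and at 14.31, 14.47 and 13.62 in KM12C, and GPX2, the gut glutathione peroxidase, differed by -4.70 ± 0.20. GSTP1 was on the HCT-116 side (2.63 ± 0.13). Of 45 xenobiotic metabolism and aldehyde dehydrogenase genes, 10 were higher in HCT-116 and 12 in KM12C, and 14 and 12 under elraglusib. The exporter ABCC2 was higher in HCT-116 by 2.35 ± 0.25. The drug exporter ABCG2 was at 5.62, 6.11 and 5.99 in HCT-116 and at 11.60, 11.47 and 11.32 in KM12C, whereas the exporter ABCB1 was low in both, at 5.43, 5.44 and 5.40 against 4.13, 3.84 and 4.35. ALDH2, the acetaldehyde dehydrogenase, differed by -4.25 ± 0.12.

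Of 41 amino acid synthesis and response genes, 17 were higher in KM12C and 4 in HCT-116, with a median difference of -0.43, and the KM12C count was 10 without HCT-116 array 1, 11 without HCT-116 array 2 and 9 without KM12C array 1. In the elraglusib arrays the majority turned, with 15 higher in HCT-116 and 8 in KM12C, where 18.8% and 17.2% of all genes were called. PHGDH, which opens serine synthesis, differed by -1.60 ± 0.12 and the serine carrier SLC1A4 by -2.04 ± 0.17, while the glutamine carrier SLC38A2 was higher in HCT-116 by 1.70 ± 0.13. The 2 media differ in their amino acids, and the part of the medium in these values was not tested. Of 29 sterol and fatty acid synthesis genes, 10 were higher in HCT-116 and 8 in KM12C, the latter 4 without any 1 HCT-116 array and without KM12C array 1 or 2. SCD, the stearoyl-CoA desaturase, was at 16.70, 16.88 and 16.83 in HCT-116 and at 14.17, 13.96 and 13.90 in KM12C, and FASN differed by 2.04 ± 0.20. Of 34 glycolysis and hypoxia genes, 12 were higher in HCT-116 and 5 in KM12C, with NDRG1 and ALDOC, both raised at low oxygen, different by 3.06 ± 0.17 and 2.72 ± 0.16.

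The lymphocyte and myeloid lists were called for 3 genes each. LCK, a kinase of T cells, was at 6.07, 5.64 and 6.05 in HCT-116 and at 8.38, 8.18 and 8.28 in KM12C, beside means of CD3D, CD3E and PTPRC under background in both lines. KLRC1 and PRF1 were low and differed by less than 1 log2 unit. LYZ, CD68 and ACTA2 were the called members of the other list, and the call of ACTA2 (0.55 ± 0.15) was lost without any 1 HCT-116 array and without KM12C array 1 or 2.

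Probe sets for 1040 miRNA genes can read precursor, host or other transcripts that share their sequence, rather than mature miRNAs. Of these probe sets, 341 were above background in either line. Of the 1040, 21 were called higher in HCT-116 and 31 in KM12C, shares far below the 12.4% and 14.3% of all genes. In all, 6 had a difference of at least 1.5 log2 units in the same direction in the untreated and in the treated arrays. The mature sequences of those with a RefSeq entry are shown 5′ to 3′, with the seed, bases 2 to 8, in capitals, because the seed largely sets which messages a miRNA can bind. They lie at chr17:59841273-59841294 (plus strand), chr7:130876748-130876769 and chr7:130876786-130876807 (minus), chrX:45746180-45746202 (minus) and chr13:90231242-90231262 (plus), in the order shown.
hsa-miR-21-5p: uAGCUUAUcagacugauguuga
hsa-miR-29a-3p: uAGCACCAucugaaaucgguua
hsa-miR-29a-5p: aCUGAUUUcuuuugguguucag
hsa-miR-221-3p: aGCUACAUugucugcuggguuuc
hsa-miR-622: aCAGUCUGcugagguuggagc
No seed was shared between them. MIR21 was at 7.54, 7.61 and 6.93 in HCT-116 and at 4.49, 4.53 and 4.71 in KM12C, so its KM12C level was near background, with a difference of 2.78 ± 0.19. MIR29A, MIR221 and MIR3143 were also higher in HCT-116, by 2.11 ± 0.25, 2.00 ± 0.24 and 3.70 ± 0.15, as was MIR378D2. The MIR622 probe set was bright in both lines, at 13.65, 13.53 and 13.85 in HCT-116 and at 15.12, 15.12 and 15.76 in KM12C. Which transcript gave this signal was not tested.

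By chromosome, 13352 genes had signal in either line, of which 20.0% were called higher in HCT-116 and 23.2% higher in KM12C, with a median difference of -0.01. Chromosome 18 had 88 of 189 genes higher in HCT-116 (46.6%) and 33 higher in KM12C, and a median difference of 0.42. Chromosomes 6, 10 and 17 followed with 30.5%, 29.7% and 29.2% higher in HCT-116. On chromosome 21, 55 of 137 genes were higher in KM12C (40.1%) and 15 in HCT-116 (median difference -0.25), and on chromosome 20, 131 of 349 (37.5%) and 41 (-0.24). Copy number was not measured in these files.

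**Figure D4:**
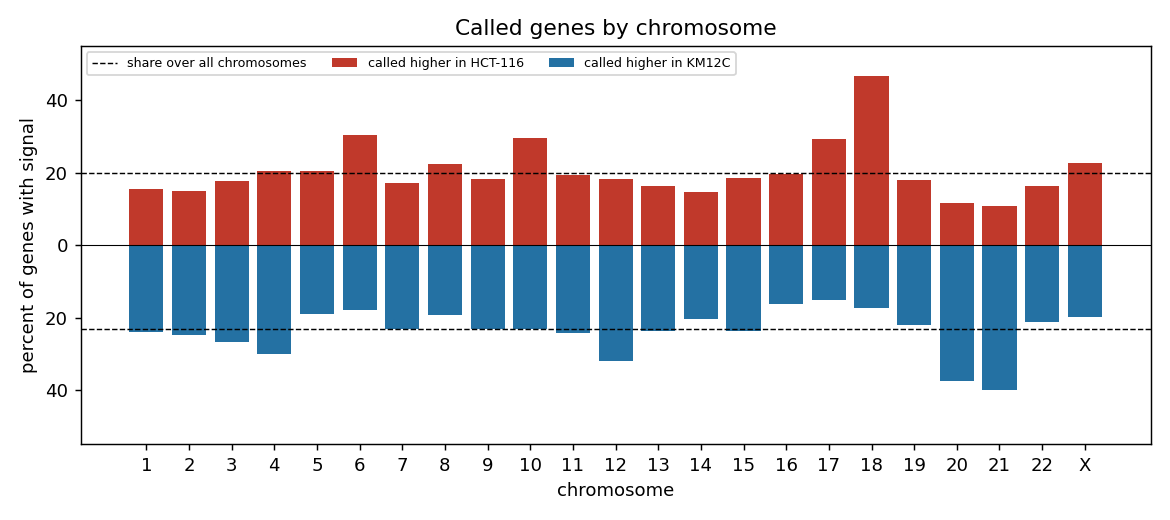
Percent of the genes with signal on each chromosome called higher in HCT-116 (red, up) or in KM12C (blue, down), with dashed lines at the shares over all chromosomes, 20.0% and 23.2%. Chromosome 18 reaches 46.6% on the HCT-116 side and chromosome 21 reaches 40.1% on the KM12C side.

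The same line difference was read in the 6 elraglusib arrays. There, 17025 probe sets were called (25.2%). Of the 11387 untreated calls, 9303 were called in the same direction under treatment (81.7% of the untreated and 54.6% of the treated calls) and 39 in the opposite one. Of the 5037 untreated calls beyond 1 log2 unit, 4698 were called in the same direction (93.3%). Some lists did not keep their side, among them the amino acid and chemokine lists above. Mitosis and replication genes had 14 higher in HCT-116 and 17 in KM12C under elraglusib. The WNT ligands, receptors and antagonists, near the background untreated, had 10 and 5. Over all genes the shares were 18.8% and 17.2% under elraglusib and 12.4% and 14.3% untreated, so the larger side turned there too. GTSF1 differed by 11.49 under treatment, TFF1 by -11.45, CDH1 by -2.77 and CAV1 by 4.42. The difference of the line difference between treatments was called for 906 probe sets (1.34%), among them LGR5, whose difference was -8.77 untreated and -5.77 under elraglusib, and MDM2, at 1.33 and 3.94.

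**Figure D5:**
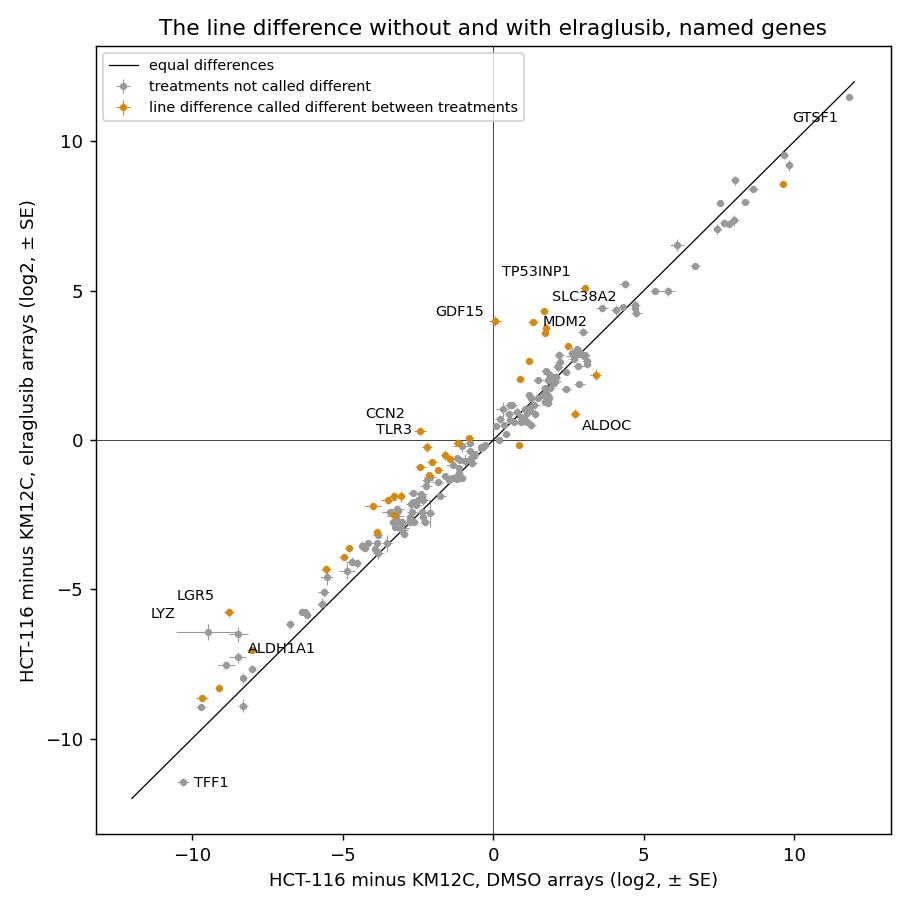
HCT-116 minus KM12C in the DMSO arrays (horizontal) against the same difference in the elraglusib arrays (vertical) for 212 named genes, as log2 units with standard errors, orange where the treatments were called different. Most points lie near the line of equal differences, and GDF15 (0.06 and 3.99) and CCN2 (-2.43 and 0.31) lie above it.

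HT-29 did not side with one line. Of 2631 genes called beyond 1 log2 unit, HT-29 lay outside the range of the 2 means for 1004, between them and nearer HCT-116 for 676, and between them and nearer KM12C for 951. Of the 1219 genes higher in HCT-116, HT-29 was nearer KM12C for 782, and of the 1412 higher in KM12C, nearer KM12C for 658 and nearer HCT-116 for 754. MSN was at 12.71 on average in HT-29, nearer to HCT-116, and LYZ at 17.57, nearer to KM12C, while REG4, PLBD1, THBS2 and CDH17 were at 3.44, 3.77, 4.47 and 4.45, all under background as in HCT-116. These levels are a description, and HT-29 entered no test.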

How the data were processed

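Whole-transcript RNA of cell cultures was read on GeneChip Human Transcriptome Array 2.0. The authors processed the arrays in the vendor's analysis console and deposited log2 signals per probe set; the sources used here give no version, background correction or summarization for it. Arrays were run in 2 batches of randomized samples, and the batch of each array was not used here. Groups came from the sample labels, 3 arrays each, described as biological replicates; nothing says that they were separate cultures beyond that, so p-values measure the spread between these arrays.

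Log2 signals were used as deposited, with no further normalization. HCT-116 DMSO was set against KM12C DMSO with limma 3.58.1 (lmFit and eBayes, R 4.3.3) on the 6 arrays, and p-values were adjusted by the Benjamini-Hochberg method over 67528 probe sets. The same fit was made on the 6 elraglusib arrays, and the difference between the treatments was fitted on all 12. A probe set with 1 gene symbol stood for its gene, the one with the highest mean where a gene had several. Of all probe sets, 23781 had 1 symbol, 1543 several and 42204 none, and 23471 matched RefSeq. Array weights, quantile normalization, a filter on dim probe sets, other eBayes settings, a fit over all 30 arrays, a replicate block, a required size and leaving out each array were tried as alternatives. The fit was tested on simulated data. Python 3.11.15 with pandas 2.3.3 made the tables.

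Named genes were the 12 largest differences in each direction without overlap between the lines, up to 6 called members of each list by size, and a set of landmark genes; others are members counted in their list. The comparison, the named genes and the lists were chosen with earlier results of these data known. Some genes of the landmark set are not reported here.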

Additional observations from a re-analysis of the deposited data

Results flagged for a closer look

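Among the named genes, 36 had a line difference that itself differed between DMSO and elraglusib, by limma's test of that difference over 12 arrays, adjusted over all 67528 probe sets. Values are the difference under elraglusib minus that under DMSO, and all arrays of one line shared a medium. The treated comparison shares no array with the untreated one, but this test uses both.

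Among p53 targets the value was 3.93 for GDF15, 2.61 for MDM2, 2.04 for TP53INP1, 2.02 for PPM1D, 1.85 for RRM2B and 1.47 for CDKN1A. For these genes the HCT-116 means were higher under elraglusib than under DMSO, as with MDM2 at 15.02 and 12.94, while the KM12C means were 11.08 and 11.62. In the treated arrays 36 of the 43 p53 targets were called higher in HCT-116, against 18.8% of all genes.

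Among WNT target and stem cell genes the value was 3.00 for LGR5, 1.76 for SMOC2, 0.97 for CEMIP, 0.77 for SLC12A2 and 1.15 for MYC. For the coreceptor LRP6 it was 0.83. Intestinal genes gave 1.41 for FOXA2, 1.47 for FOXA1, 0.80 for KLF5, 1.04 for CA12 and 1.04 for CTSE. PLBD1, which is in neither group, gave 0.81. The KM12C mean of LGR5 was 12.90 under DMSO and 10.21 under elraglusib, with HCT-116 under background at 4.13 and 4.44.

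Of the other genes, CCN2 stood at 2.73, SLC38A2 at 2.61, TLR3 at 1.98, TGFBR3 at 1.51, SLC1A4 at 1.30, ABCG2 at 1.23, CYP1B1 at 1.17, ERAP2 at 1.16, TNFSF10 at 1.09, TOP2A at 1.07, ITGA1 at 0.95, TGFBR2 at 0.86, CXCL3 at 0.80 and CCNE1 at 0.68. The value was negative for ALDOC (-1.83), KLF2 (-1.23), CYP24A1 (-1.05) and ENO2 (-1.05), where the line difference was smaller or turned under elraglusib. A positive value also stands for a smaller or turned difference where the gene was higher in KM12C untreated. Examples are CCN2 (-2.43 untreated and 0.31 treated) and TLR3 (-2.2 and -0.23). For SLC38A2, higher in HCT-116, it stands for a larger difference (1.7 and 4.31).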

How the results depend on the processing

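With 1 array left out at a time, the untreated calls numbered 8605 to 13288 (4010 to 6308 higher in HCT-116, 4595 to 6980 higher in KM12C) and the treated calls 13269 to 15639 (6334 to 7225 and 6935 to 8414). Array weights gave 16364 calls (7956 higher in HCT-116 and 8408 in KM12C), a single probe set per gene 7440 (3541 and 3899), and a required difference beyond 1 log2 unit 5037 (2349 and 2688). The background at the 90th percentile of the olfactory receptor probe sets left 36 and 37 genes with signal in 1 line alone. Quantile normalization gave 12406 calls and moved the share higher in HCT-116 from 45.6% to 49.8%. Further settings chosen after seeing the data, the array median as a covariate and the joint omission of HCT-116 array 2 and KM12C array 3, gave 13912 and 12715. Replicate numbers did not pair the arrays: deviations of same-numbered arrays correlated at -0.346, 0.329 and 0.168, and the replicate block gave 10980 untreated calls (4988 and 5992) and 14017 treated calls (6548 and 7469). Of 202 named genes called, 16 lost the call under some setting other than the choice of probe set, and none of the named genes changed direction. MYC (adjusted p = 0.092) and ENO2 (0.154) lost it in the limma fit over all 30 arrays. With 3 arrays per line, their number limits the precision, and differences of genes near background are compressed. The array batches could not be entered in a fit, and their part was not tested.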

Other observations

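The gene families given here, some of whose members also belong to the lists, were chosen after their values were seen, so their counts are a description, to be read beside the 12.4% and 14.3% of all genes called higher in HCT-116 and in KM12C. Over genes with signal in either line, these shares were 20.0% and 23.2%. The metallothioneins, which bind zinc and copper, were higher in HCT-116 for 14 of 14 measured genes, with a median difference of 1.98, and for 14 of 14 under elraglusib (2.36). MT1E was at 15.26, 15.26 and 15.28 in HCT-116 and at 10.83, 10.40 and 11.31 in KM12C. Their probes can be shared between near-identical copies, and the media differed between the lines, so the part of either was not tested.

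Of 64 H/ACA box snoRNA genes, which guide pseudouridine formation in ribosomal RNA, 43 were higher in KM12C and 0 in HCT-116 (median difference -1.15), and under elraglusib 30 and 1 (-0.65). The C/D box snoRNA genes leaned the same way, with 41 of 173 higher in KM12C and 1 in HCT-116 (-0.1), and 44 and 4 under elraglusib. In the elraglusib arrays 17.2% and 18.8% of all genes were called higher in KM12C and in HCT-116. Of 249 ZNF genes on chromosome 19, 111 were higher in KM12C and 12 in HCT-116 (-0.33), whereas of 284 on other chromosomes 42 and 38 were (0.03). The difference between these sets of ZNF genes was not tested. Of 30 clustered protocadherins, which give neurons a surface identity, 17 were higher in KM12C and 0 in HCT-116. PCDHGB2 was at 4.23, 4.32 and 4.49 in HCT-116 and at 9.86, 9.93 and 9.43 in KM12C.

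Of 27 HLA genes, 14 were higher in HCT-116 and 0 in KM12C (0.47), and near-identical members can share probes. Of 17 BEX, TCEAL and RTL8 genes, all on the X chromosome, 7 were higher in HCT-116 and 1 in KM12C, with TCEAL8 at 10.37, 10.84 and 10.65 in HCT-116 and at 4.4, 4.67 and 4.72 in KM12C, and TCEAL1 in the opposite direction (-3.22 ± 0.15). Among 49 genes of the olfactory receptor families OR51 and OR52, which also belong to the genes that set the background, 5 were called higher in HCT-116, a share below that of all genes, and 4 were above background. OR51B4 was at 11.62, 11.60 and 11.28 in HCT-116 and at 4.96, 5.12 and 5.75 in KM12C.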
